A study of Mus musculus with 16 samples.

Results

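The 10 genes described here belong to the growth factor and interleukin-6 (IL-6) pathways, and were followed across 4 groups of mouse liver: the ligand genes Hgf, Tgfa and Hbegf, the receptor genes Met, Egfr, Erbb3, Il6ra and Il6st, the transcription factor gene Stat3 and the feedback inhibitor gene Socs3. They were chosen by name for their place in the HGF, EGF receptor and IL-6 pathways of liver regeneration, and are 10 of 33730 genes in the deposited count table. Stat3 carried the only call: it was 2.15-fold lower in livers of untreated Nrf2-null mice than in livers of wild-type mice given vehicle. Socs3, its feedback inhibitor, had the widest range of the 10 genes, from 4.47 to 247 CPM (reads of the gene scaled to the TMM-adjusted library size), and its differences between groups did not pass the test.

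The study compared wild-type (WT) and Nrf2-null (KO, Nrf2-/-) mice of the C57BL/6 strain, with and without CDDO-Me (bardoxolone methyl), a synthetic triterpenoid known to activate the transcription factor NRF2. There were 4 libraries in each of 4 groups. KO CDDO-Me mice were KO and received 3 mg/kg CDDO-Me in DMSO by intraperitoneal injection, 24 h and 1 h before partial hepatectomy. WT CDDO-Me mice were WT and received the same injections. KO untreated mice were KO and were left untreated, which is read here as no vehicle injection, and WT DMSO mice were WT and received DMSO alone at 1 µL/g at the same times. All libraries came from liver of day 0, the tissue resected at the operation. Since the KO controls are labelled untreated, genotype and vehicle injection cannot be told apart in KO untreated vs WT DMSO, drug and injection cannot be told apart in KO CDDO-Me vs KO untreated, and both limits enter the genotype by drug interaction. The labels give no sex, age or batch, and describe the null allele only as Nrf2-/-.

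Liver regrows after resection from its mature cells, and it does so under 2 sets of signals. IL-6, made mainly by Kupffer cells, binds its receptor (Il6ra) together with the shared signalling subunit (Il6st), which activates STAT3 in hepatocytes and with it the acute phase genes and Socs3, whose product shuts the same receptor complex down. Hepatocyte growth factor (Hgf), made by stellate and endothelial cells, acts on MET, and the EGF-like ligands TGF-alpha (Tgfa) and HB-EGF (Hbegf) act on the EGF receptor (Egfr), to drive hepatocytes into the cell cycle, while ERBB3, a receptor with little kinase activity of its own, signals in pairs with other members of the EGF receptor family.

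Library totals of gene counts ran from 12002317 to 99284626. Nqo1, a classic NRF2 target, rose in WT CDDO-Me relative to WT DMSO by 3.33 log2 units (edgeR adjusted p = 2.6e-05), which checks the treatment label. Nfe2l2, the gene that encodes NRF2, averaged 18.9 CPM in KO CDDO-Me against 39.9 CPM in WT CDDO-Me (edgeR adjusted p = 0.0283), and 32.1 CPM in KO untreated against 59.7 CPM in WT DMSO (adjusted p = 0.0969). The library labelled KO untreated 1 had 51.7 CPM of Nfe2l2, within the WT range, although its Nqo1 was at 0.508 CPM against 3.21 to 4.22 CPM in WT DMSO. KO untreated 1 and 2 and WT DMSO 1 and 2 stood apart by reads in sense-intronic and unconfirmed transcripts, at 0.673% to 0.967% against 0.186% to 0.407% of counts elsewhere, and are called the 4 intron-rich libraries. A fit without them keeps only libraries 3 and 4 of KO untreated and of WT DMSO. WT DMSO 4 also stood apart: it was the highest of 16 libraries for 6 of the 10 genes, and its neutrophil and monocyte markers summed to 47.7 CPM over 13 genes, against 4.68 to 19.1 CPM in the other 15 libraries. WT DMSO 4 and WT CDDO-Me 1 had 0.0059% and 0.010% of counts in ribosomal RNA genes, against 0.173% to 0.634% in the other 6 WT livers and 0.00108% to 0.0368% in the 8 KO livers. Outside WT DMSO 4 and WT CDDO-Me 1, this library difference runs along with genotype. The 2 cannot be fully told apart in KO untreated vs WT DMSO or in KO CDDO-Me vs WT CDDO-Me. All 12 hepatocyte markers were detected in every library.

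Levels of different genes were compared per gene length, on the FPKM scale that the authors deposited. Egfr was the most abundant of the 10 genes, at 151 ± 62.1 FPKM over 16 libraries (SD), and its lowest library lay above the highest library of every other member. Below it came Erbb3 at 35.7 ± 8.97, Il6st at 33.8 ± 6.15, Stat3 at 26.9 ± 7.23 and Socs3 at 24.6 ± 23.6 FPKM. Met averaged 14.8 ± 2.27 FPKM and Il6ra 12.1 ± 6.68 FPKM, so the mean for the ligand-binding Il6ra was below that for its signalling partner Il6st. The ligands were lowest, with Tgfa at 4.16 ± 1.77, Hgf at 3.67 ± 1.18 and Hbegf at 0.406 ± 0.157 FPKM. From Erbb3 down to Hgf, the ranges of neighbouring genes in this order overlapped, and the range of Hbegf lay below that of Hgf. By group mean, Socs3 changed its place between groups: it ranked 3 of 10 in KO CDDO-Me, 2 of 10 in WT CDDO-Me, 7 of 10 in KO untreated and 5 of 10 in WT DMSO. A single liver raised the mean in KO CDDO-Me (80.3 FPKM) and in WT DMSO (68.9 FPKM). In KO CDDO-Me the Socs3 mean was 31.2 FPKM and its median 15.8, below the Met median of 16.9. In WT DMSO its mean was 25.6 FPKM and its median 12.9, below the Il6ra median of 17.0.

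**Figure D1:**
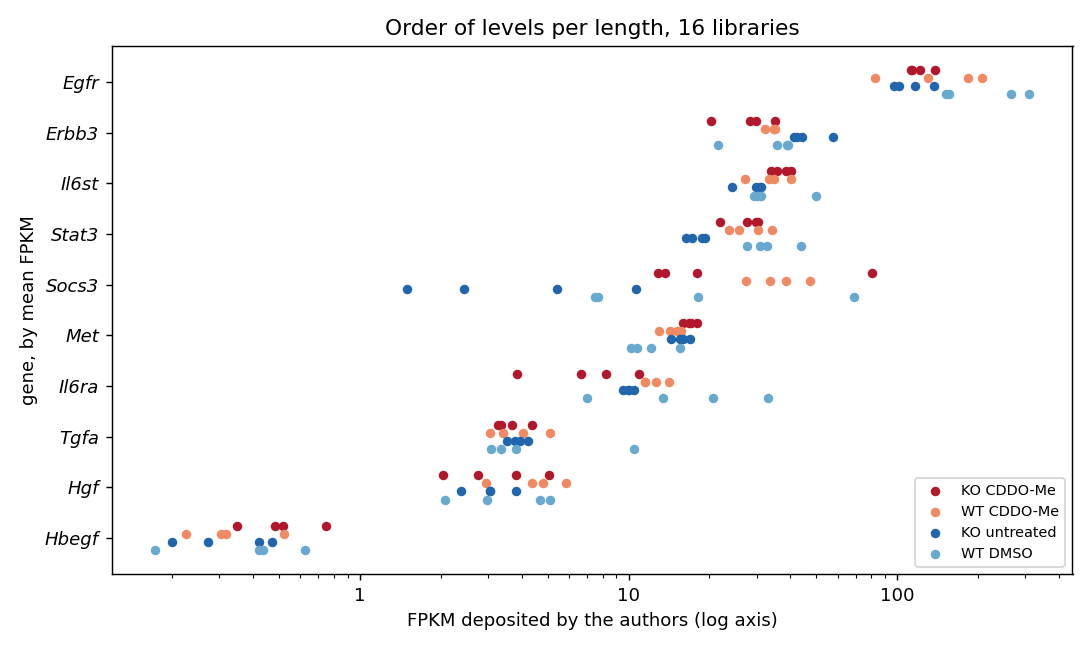
Deposited FPKM (log axis) of each gene in each library, with genes ordered by mean FPKM over 16 libraries and 1 point per library, coloured by group. Egfr stands above all other genes, Hbegf below all others, and Socs3 covers the widest span, up to 80.3 FPKM.

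Each comparison was fitted with edgeR over 16206 genes that passed a filter on low counts, all 10 genes among them, and calls were made where the adjusted p (Benjamini-Hochberg) was below 0.05. In KO untreated vs WT DMSO, 1 of the 10 genes was called, Stat3, downward, beside 1.38% of all genes tested. The count of members called was 0 in KO CDDO-Me vs KO untreated, where 0.13% of all genes were called, 0 in WT CDDO-Me vs WT DMSO (0.728%), 0 in KO CDDO-Me vs WT CDDO-Me (3.3%), with 0 in the interaction (0.13%). At an unadjusted edgeR p under 0.05 there were 4 members in KO untreated vs WT DMSO beside 14.1% of all genes, 3 in KO CDDO-Me vs KO untreated (15.8%), 0 in WT CDDO-Me vs WT DMSO (15.3%), 1 in KO CDDO-Me vs WT CDDO-Me (17.1%), with 2 in the interaction (8.53%). With 10 genes these counts are small, and none was tested against its share. DESeq2 called Stat3 in KO CDDO-Me vs KO untreated, where its log2 fold change was 0.80 (adjusted p = 0.0475) and 1.85% of all genes were called, and Egfr beside Stat3 in KO untreated vs WT DMSO (4.08% of all genes). It called no member in WT CDDO-Me vs WT DMSO (2.92%), in KO CDDO-Me vs WT CDDO-Me (6.98%) or in the interaction (1.11%). The 4 livers of a group did not overlap the 4 of the other group for 3 members in KO CDDO-Me vs KO untreated (Il6st, Stat3 and Socs3, all higher in KO CDDO-Me; 10.5% of all genes did not overlap), for 1 in KO untreated vs WT DMSO (Stat3; 5.91%), for 1 in KO CDDO-Me vs WT CDDO-Me (Il6ra, lower in KO CDDO-Me; 19.1%), and for 0 in WT CDDO-Me vs WT DMSO (7.2%).

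**Figure D2:**
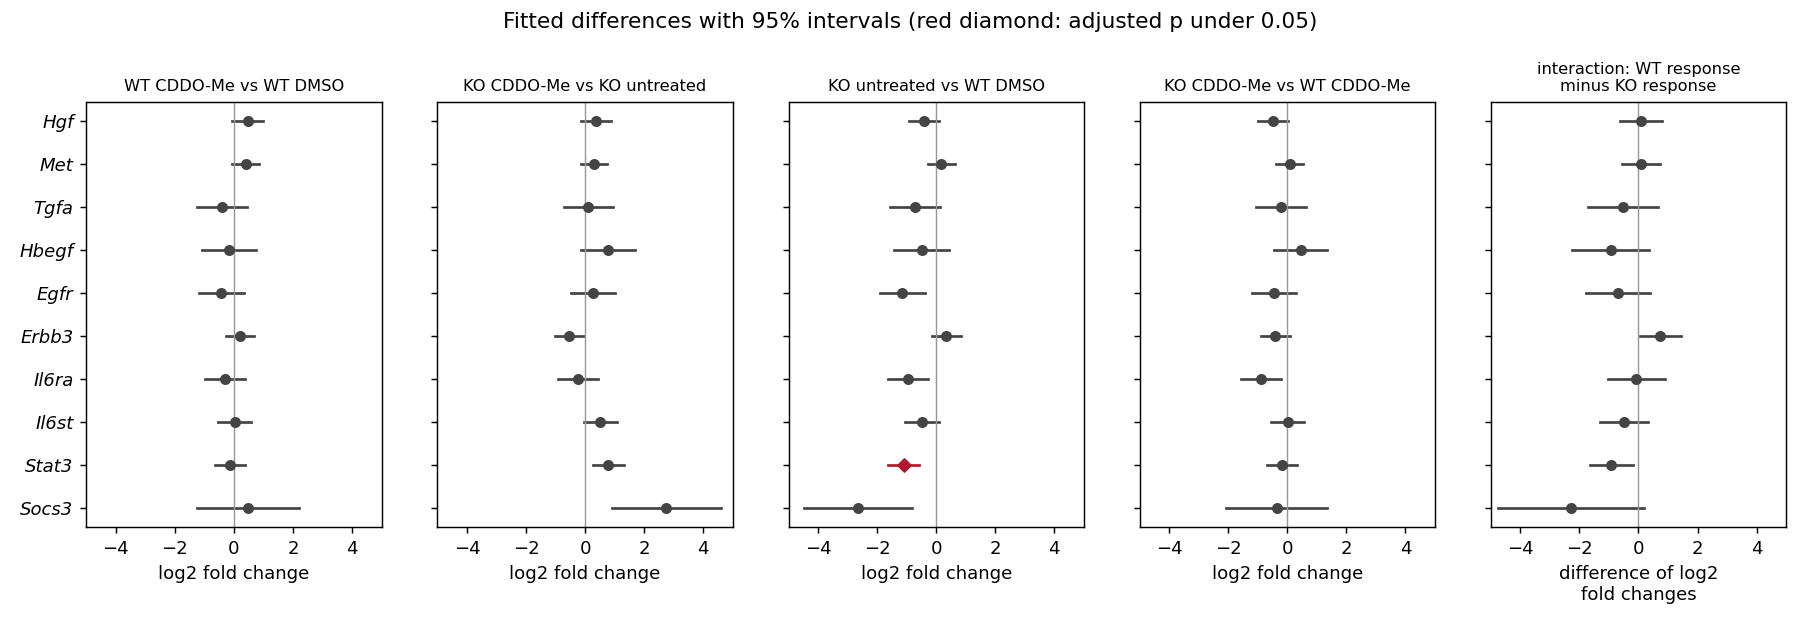
Fitted log2 fold change of each gene in each comparison (points, with 95% confidence intervals), and in the right panel the drug response in WT minus that in KO. Stat3 in KO untreated vs WT DMSO, at -1.10, is the only one past the threshold (red diamond), and the Socs3 intervals are the widest.

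The median log2 fold change of the 10 genes was -0.60 in KO untreated vs WT DMSO, where 8 of 10 were negative and the median of all genes tested was 0.0035. Without WT DMSO 4 it was -0.32, with 6 of 10 negative, since Tgfa (0.088) and Hbegf (0.0068) were then positive. It was 0.34 in KO CDDO-Me vs KO untreated, with 8 of 10 positive, against -0.044 for all genes. Without the 4 intron-rich libraries it was 0.20, with 6 of 10 positive, against 0.023 for all genes. These comparisons share the KO untreated libraries, and each of the others shares a group with another comparison. The member medians were -0.050 in WT CDDO-Me vs WT DMSO (0.33 without WT DMSO 4), -0.28 in KO CDDO-Me vs WT CDDO-Me, with -0.50 in the interaction (-0.20 without WT DMSO 4), against medians of -0.017, -0.013 and 0.0088 over all genes. Without the 4 intron-rich libraries the member median was -0.33 in WT CDDO-Me vs WT DMSO and -0.69 in the interaction.

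**Figure D3:**
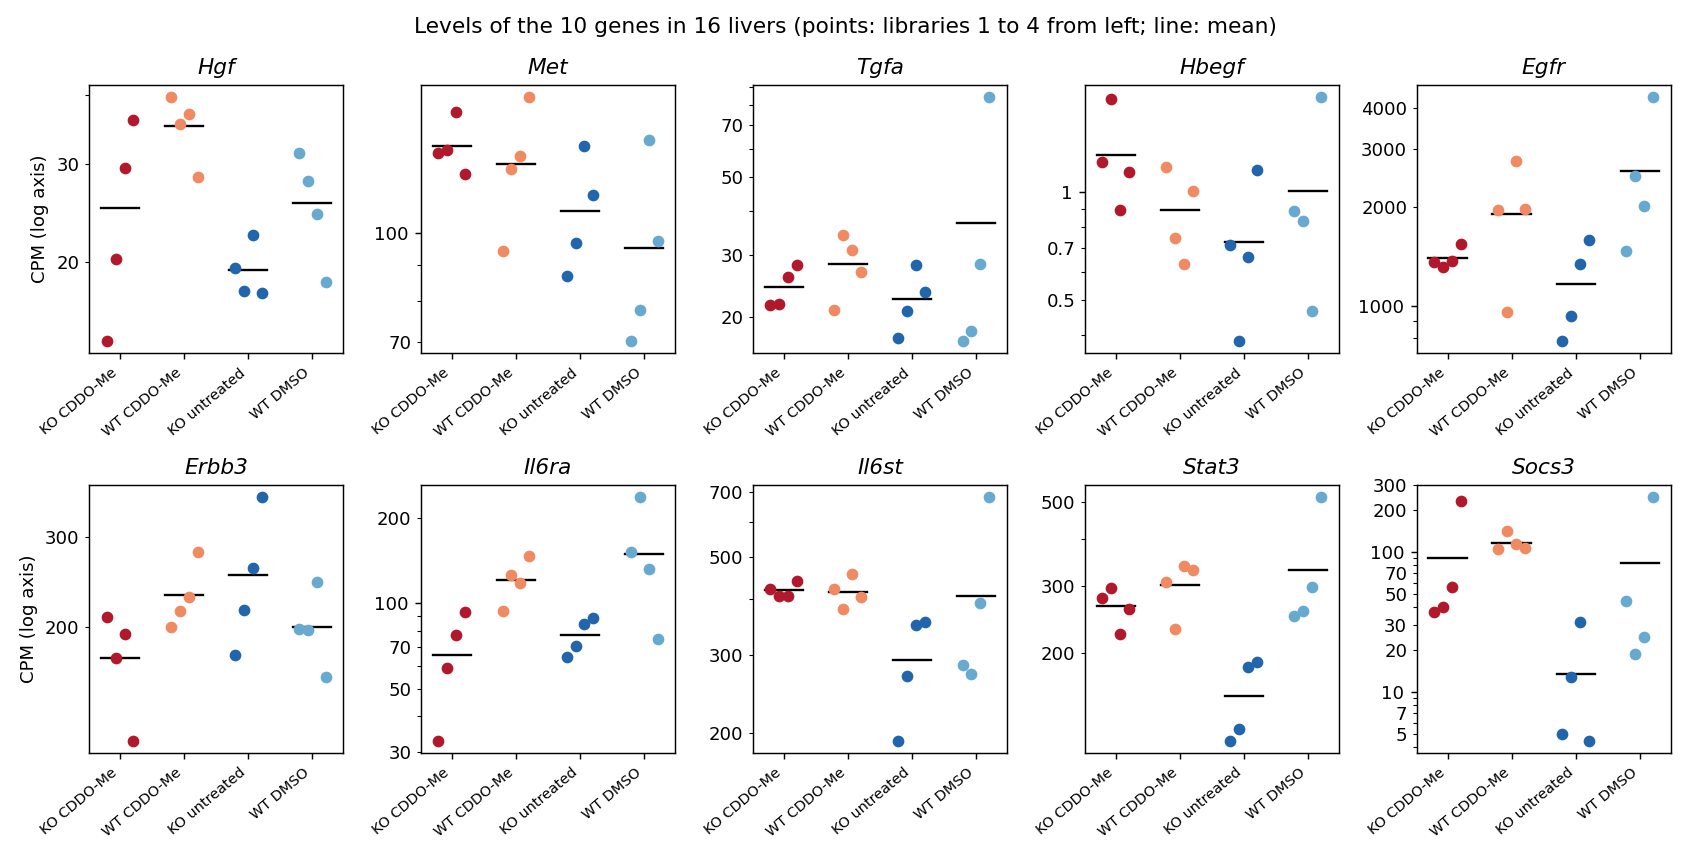
CPM (log axis) of each gene in each library, with points for libraries 1 to 4 from left to right within a group and a line at the group mean. All 4 KO untreated livers lie between 117 and 189 CPM for Stat3, below the other 12 livers, and WT DMSO 4 is the highest point for Tgfa, Hbegf, Egfr, Il6st, Stat3 and Socs3.

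Among the ligands, Hgf (chr5:16553495-16620152, plus strand, GRCm38) had 14.4, 20.3, 29.6 and 36.0 CPM in KO CDDO-Me livers 1 to 4 and 39.6, 35.4, 36.9 and 28.5 CPM in WT CDDO-Me livers. It had 19.5, 17.8, 22.4 and 17.6 CPM in KO untreated livers and 31.4, 28.0, 24.4 and 18.4 CPM in WT DMSO livers. WT CDDO-Me was thus the highest group and KO untreated the lowest, with every pair of groups compared overlapping in at least 1 library. Hgf was 1.38-fold higher in WT CDDO-Me than in WT DMSO (log2 fold change 0.46 ± 0.23 SE, 95% interval -0.049 to 0.97, edgeR adjusted p = 0.351), and the difference was not called. Its log2 fold change was 0.38 in KO CDDO-Me vs KO untreated (adjusted p = 0.401), -0.40 in KO untreated vs WT DMSO (adjusted p = 0.501) and -0.49 in KO CDDO-Me vs WT CDDO-Me (adjusted p = 0.305). Stellate cell markers, of the cells known to make HGF, moved the same way in WT: the 12 listed genes summed to 570 to 673 CPM in WT CDDO-Me against 301 to 485 CPM in WT DMSO, with no marker at 0. All 12 of those genes had positive fold changes and 0 were called; their part in the Hgf values was not tested. In KO the marker sum was 339 to 483 CPM with CDDO-Me against 322 to 832 CPM without treatment, and 10 of the 12 fold changes were negative (median -0.39), where that of Hgf was positive. Of the 12, 11 were positive in KO untreated vs WT DMSO (median 0.59) and 1 in KO CDDO-Me vs WT CDDO-Me. Hgf was negative in both. Of 12 endothelial markers, 11 were positive in WT CDDO-Me vs WT DMSO and 0 in KO CDDO-Me vs KO untreated. All 12 were positive in KO untreated vs WT DMSO, and 0 in KO CDDO-Me vs WT CDDO-Me. The part of either list in the Hgf values was not tested. In bulk tissue, fewer cells of a type and less RNA per cell cannot be told apart. Short unconfirmed transcripts on the same strand (Gm43489 and Gm42975) overlap Hgf, with counts of 2.08% and 3.02% of those of Hgf.

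Tgfa, an EGF receptor ligand of hepatocytes (chr6:86195223-86275719), ranged from 21.6 to 28.1 CPM in KO CDDO-Me, 20.9 to 34.1 CPM in WT CDDO-Me, 17.4 to 28.1 CPM in KO untreated and, in WT DMSO, 17.1 to 84.2 CPM. The top value was WT DMSO 4, and the other 3 WT DMSO livers had 17.1, 18.2 and 28.2 CPM, inside or near the range of the other groups. The log2 fold change of Tgfa was -0.40 for WT CDDO-Me vs WT DMSO (edgeR adjusted p = 0.594), and 0.41 without WT DMSO 4 (adjusted p = 0.25). Its fold change in KO untreated vs WT DMSO was -0.72 (adjusted p = 0.435), and 0.088 without that library. Hbegf (chromosome 18), a second ligand of the same receptor, was measured from 7 to 123 reads per library. Its groups averaged 1.26 ± 0.394 CPM in KO CDDO-Me, 0.889 ± 0.246 CPM in WT CDDO-Me, 0.727 ± 0.316 CPM in KO untreated and 1.01 ± 0.584 CPM in WT DMSO (SD, n = 4 each). None of its differences was called, and their intervals were wide: in KO CDDO-Me vs KO untreated the log2 fold change of Hbegf was 0.78 with a 95% interval of -0.12 to 1.68 (edgeR adjusted p = 0.349).

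The HGF receptor gene Met (chr6:17463800-17573980) varied least over the libraries, with 2.23-fold between its lowest and highest liver. It averaged 133 ± 11.5 CPM in KO CDDO-Me, 126 ± 25.5 CPM in WT CDDO-Me, 108 ± 20.2 CPM in KO untreated and 95.3 ± 29.4 CPM in WT DMSO. The drug-treated groups had the higher means in both genotypes, with log2 fold changes of 0.31 in KO CDDO-Me vs KO untreated (95% interval -0.14 to 0.76, edgeR adjusted p = 0.432) and 0.40 in WT CDDO-Me vs WT DMSO (-0.051 to 0.85, adjusted p = 0.358). Neither was called, and the difference between these responses was 0.094 ± 0.29 on the log2 scale (adjusted p = 0.986). Over the 22 alternatives the log2 fold change ranged from 0.11 to 0.43 in KO and from 0.080 to 0.63 in WT. In both control groups the intron-rich libraries were the lowest, at 70.2 to 97.0 CPM against 97.3 to 136 CPM in the other control livers.

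Egfr, the receptor for TGF-alpha and HB-EGF (chr11:16752203-16918158), had 1362, 1319.6, 1368 and 1544 CPM in KO CDDO-Me livers 1 to 4 and 1962, 958, 2759 and 1975 CPM in WT CDDO-Me livers. It had 785, 933, 1348 and 1596 CPM in KO untreated livers and 1470.0, 2493, 2016 and 4326 CPM in WT DMSO livers. KO untreated held the lowest 2 of the 16 livers and WT DMSO the highest, and only KO untreated 4 reached above the lowest WT DMSO liver. The log2 fold change of Egfr in KO untreated vs WT DMSO was -1.14 ± 0.35 (95% interval -1.91 to -0.38), which edgeR did not call (adjusted p = 0.126) and DESeq2 did (adjusted p = 0.0202). Over the 22 alternatives tried (each of 16 libraries left out in turn, and 6 other settings) it stayed between -1.34 and -0.77, with adjusted p from 0.0202 to 0.332. Egfr differed by -0.43 in WT CDDO-Me vs WT DMSO (adjusted p = 0.53) and by 0.26 in KO CDDO-Me vs KO untreated (adjusted p = 0.684). Its antisense gene Egfros had at most 17 reads in a library.

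Erbb3 (chr10:128567523-128589652), the receptor with little kinase activity, had a pattern of its own. It ranged from 120.2 to 209.5 CPM in KO CDDO-Me, 200.3 to 280.2 CPM in WT CDDO-Me, 176 to 359 CPM in KO untreated and, in WT DMSO, 160.1 to 245 CPM. KO CDDO-Me held the lowest liver and KO untreated the highest, and these groups overlapped. In KO CDDO-Me vs KO untreated the log2 fold change of Erbb3 was -0.54 ± 0.22 (edgeR adjusted p = 0.278), and the value for WT CDDO-Me vs WT DMSO was 0.21 ± 0.22 (adjusted p = 0.638). The difference between these responses was 0.74 ± 0.32, with an adjusted p of 0.516, so it was not called.

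Il6ra, the ligand-binding chain of the IL-6 receptor (chr3:89864059-89913196), had 32.8, 58.9, 77.1 and 93.1 CPM in KO CDDO-Me livers 1 to 4 against 94.2, 125, 117 and 147 CPM in WT CDDO-Me livers. It had 64.3, 70.6, 84.2 and 88.9 CPM in KO untreated livers against 152, 237, 132 and 74.9 CPM in WT DMSO livers. Every KO CDDO-Me liver lay below every WT CDDO-Me liver, and in the groups without drug only WT DMSO 4 fell inside the KO range. WT DMSO 4 and WT CDDO-Me 1 were the lowest Il6ra livers of their groups. These WT livers also had ribosomal RNA counts as low as the KO livers (0.0059% and 0.010%). Genotype and this library difference cannot be fully told apart in the Il6ra values. Il6ra was 1.85-fold lower in KO CDDO-Me relative to WT CDDO-Me (log2 fold change -0.88 ± 0.31, edgeR adjusted p = 0.149) and 1.93-fold lower in KO untreated than in WT DMSO (-0.95 ± 0.31, adjusted p = 0.158). Neither difference was called. Across the 22 alternatives, both kept a negative sign, from -1.10 to -0.66 and from -1.17 to -0.28, the smallest adjusted p being 0.0695 and 0.0581; the value of -0.28 came from leaving out the 4 intron-rich libraries. In drug against no drug, the log2 fold change of Il6ra was -0.23 in KO (95% interval -0.92 to 0.45) and -0.30 in WT (-0.98 to 0.38), and the difference between these responses was -0.067 ± 0.44.

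Il6st (chr13:112464070-112510086), which carries the IL-6 signal across the membrane, had 423, 407, 407 and 441 CPM in KO CDDO-Me livers 1 to 4 and 421, 381, 456 and 406 CPM in WT CDDO-Me livers. It had 192, 269, 351 and 356 CPM in KO untreated livers and 284, 272, 392 and 682 CPM in WT DMSO livers. The 8 drug-treated livers lay close together and the 8 others were spread, from the lowest to the highest level of all 16. The 4 intron-rich libraries, all of them without drug, lay below every other liver. All KO CDDO-Me livers exceeded all KO untreated livers, yet the log2 fold change of Il6st, 0.52 ± 0.26, was not called (edgeR adjusted p = 0.333). For WT CDDO-Me vs WT DMSO the value was 0.031, with a 95% interval of -0.53 to 0.59 (adjusted p = 0.959), and in KO untreated vs WT DMSO it was -0.48 ± 0.26 (adjusted p = 0.443), or -0.11 without WT DMSO 4 (adjusted p = 0.864). Without the 4 intron-rich libraries the value for WT CDDO-Me vs WT DMSO turned to -0.40. The value for KO CDDO-Me vs KO untreated went down to 0.27 over the 22 alternatives.

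Stat3, the transcription factor that Il6st and its kinases activate (chr11:100885098-100939540, minus strand), had 280.1, 297, 225 and 261 CPM in KO CDDO-Me livers 1 to 4 and 308, 231, 340.0 and 331 CPM in WT CDDO-Me livers. It had 117, 126, 183 and 189 CPM in KO untreated livers and 251, 259, 299 and 517 CPM in WT DMSO livers. The 4 KO untreated livers were the lowest 4 of the 16, and the other 12 livers, all from mice given CDDO-Me or DMSO, began at 225 CPM. Stat3 fell in KO untreated relative to WT DMSO by 1.10 ± 0.24 on the log2 scale (95% interval -1.62 to -0.58, edgeR adjusted p = 0.0302), or 2.15-fold, with means of 154 ± 37.6 CPM in KO untreated and 331 ± 125 CPM in WT DMSO (SD, n = 4 each). It was 1.72-fold higher in KO CDDO-Me than in KO untreated (log2 fold change 0.79 ± 0.24), which edgeR did not call (adjusted p = 0.204). Between the drug-treated genotypes the difference was -0.19 ± 0.24 (95% interval -0.70 to 0.33), and between WT CDDO-Me and WT DMSO it was -0.13 ± 0.24 (-0.64 to 0.38). The WT response minus the KO response of Stat3 was -0.92 ± 0.33 (edgeR adjusted p = 0.405).

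The Stat3 call in KO untreated vs WT DMSO held in 16 of 22 alternatives, and its log2 fold change stayed between -1.22 and -0.80 in all of them. It was lost without WT DMSO 4 (-0.80, edgeR adjusted p = 0.0608), without WT CDDO-Me 4 (-1.11, 0.0504), without KO untreated 1 (-0.99, 0.0713), without KO untreated 2 (-1.02, 0.102), without the 4 intron-rich libraries (-1.16, 0.0707), and without WT CDDO-Me 1 together with WT DMSO 4 (-0.80, 0.0778). The fit without the intron-rich libraries keeps only libraries 3 and 4 of KO untreated and of WT DMSO. Stat3 and Stat5a lie on opposite strands and overlap by 72 bases. Stat5a had 8.59% of the Stat3 counts and its log2 fold change in KO untreated vs WT DMSO was -0.57 ± 0.35 (adjusted p = 0.535).

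Socs3, the STAT3-induced inhibitor of the IL-6 receptor complex (chr11:117966079-117970047, minus strand), had 36.8, 40.4, 56.0 and 229.6 CPM in KO CDDO-Me livers 1 to 4 and 105, 140.1, 114 and 106 CPM in WT CDDO-Me livers. It had 5.03, 12.7, 31.6 and 4.47 CPM in KO untreated livers and 44.5, 18.6, 24.8 and 247 CPM in WT DMSO livers. WT CDDO-Me livers were uniform, KO CDDO-Me and WT DMSO each held a single liver far above its other 3, and 3 of 4 KO untreated livers lay below every other liver. Socs3 was 6.75-fold higher in KO CDDO-Me than in KO untreated, with no overlap (log2 fold change 2.75 ± 0.85, edgeR adjusted p = 0.207), and 6.23-fold lower in KO untreated than in WT DMSO (-2.64 ± 0.84, adjusted p = 0.141). Neither was called by edgeR, nor in any of the 22 alternatives, where the smallest adjusted p were 0.0586 and 0.099. In WT CDDO-Me vs WT DMSO the log2 fold change of Socs3 was 0.47, with a 95% interval of -1.25 to 2.19 (adjusted p = 0.773). Without WT DMSO 4, whose neutrophil and monocyte markers are given above, it was 1.99 (adjusted p = 0.139), and the value for KO untreated vs WT DMSO was then -1.12 (adjusted p = 0.505). Without KO CDDO-Me 4, Socs3 differed by 1.73 in KO CDDO-Me vs KO untreated (adjusted p = 0.325). Markers of Kupffer cells, a source of IL-6, summed to 396 to 647 CPM in KO CDDO-Me, 508 to 705 CPM in WT CDDO-Me, 285 to 513 CPM in KO untreated and, in WT DMSO, 242 to 335 CPM over 12 genes, none at 0. In WT CDDO-Me vs WT DMSO 4 of these 12 rose and 0 fell, beside 0.728% of all genes called. In KO CDDO-Me vs KO untreated 0 were called (0.13% of all genes) and 10 were positive. In KO untreated vs WT DMSO, where the Socs3 fold change was negative, 11 were positive with a median of 0.53 and 1 rose (1.38% of all genes called). The part of these markers in the Socs3 values was not tested.

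The letters before the RefSeq start of Socs3 are shown because Socs3 is a known STAT3 target and had the widest range of the 10 genes. They come from RefSeq (GRCm38.p6) and cover chr11:117969367-117969616, the 250 bases before the RefSeq start, read on the minus strand, with the STAT element TTCNNNGAA in capitals. RefSeq and GENCODE place the start differently: the GENCODE protein-coding transcript starts at 117969186 and its processed transcripts at 117969451 and 117970047, so the stretch lies inside the GENCODE span of the gene.
Socs3: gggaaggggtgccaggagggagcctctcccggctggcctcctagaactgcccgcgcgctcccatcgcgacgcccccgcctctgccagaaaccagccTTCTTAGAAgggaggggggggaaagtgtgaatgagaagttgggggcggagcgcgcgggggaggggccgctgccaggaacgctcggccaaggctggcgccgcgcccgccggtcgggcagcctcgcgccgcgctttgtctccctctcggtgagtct
Windows of 300 bases (250 before and 50 after the start) were searched on both strands for 8 of the 10 genes, Erbb3 and Hbegf not being among them. The STAT element was in 1 of the 8, Socs3, and in 8.3% of 32851 windows of all genes. The antioxidant response element core, TGACNNNGC, which NRF2 binds with small MAF partners, was in 2 of the 8, Hgf and Met, and in 12.4% of all windows. No window of these 8 genes held both, and Hgf held its core in 1 of its 2 windows. A match is a description of these letters only.

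The motif and 10 bases on each side, fewer at the end of a window, are set side by side below for these 3 genes and for the 4 of 18 IL-6 and STAT3 target genes with a window that hold a STAT element; all are written 5′ to 3′ on the strand of the gene with the motif in capitals, Met holding the core on its opposite strand.
Hgf, chr5:16553517-16553544, plus strand: gcctgtgcctTGACTTAGCgattgggct
Met, chr6:17463891-17463919, plus strand: ctgttgcccgGCTGAGTCAcgggccgggc
Socs3, chr11:117969502-117969530, minus strand: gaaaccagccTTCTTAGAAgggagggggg
Fga, chr3:83025909-83025937, plus strand: aggcccccatTTCCTGGAAtgtagattcc
Fgb, chr3:83050007-83050035, minus strand: gactcaatgaTTCGAGGAAccccctgtgt
Itih4, chr14:30886415-30886443, plus strand: aaacctgcatTTCCGAGAActtgcaccag
Steap4, chr5:7960346-7960374, plus strand: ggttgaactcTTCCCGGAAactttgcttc
With the RefSeq start counted as 0, the core lies at 32 to 40 in Hgf and at -56 to -48 in Met, and the STAT element of Socs3 at -154 to -146. Neither Hgf nor Met was called in a comparison of drug or genotype.

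Genes known as targets of IL-6 and STAT3 were described through a list of 24, made of acute phase genes such as Saa1, Hp, Fga and Orm2 and of early response genes such as Junb, Bcl3 and Pim1. The list was chosen with earlier results of these data known. In KO untreated vs WT DMSO, 4 of the 24 fell and 0 rose, beside 1.38% of all genes called. There 22 of the 24 were negative, and the median log2 fold change was -1.22 against 0.0035 for all genes. Those called were Junb, an AP-1 subunit (-2.16 ± 0.41, edgeR adjusted p = 0.0145), Bcl3, a nuclear cofactor of NF-kB (-2.15 ± 0.41, adjusted p = 0.0148), Lbp, the lipopolysaccharide-binding plasma protein (-1.40 ± 0.32, adjusted p = 0.0421) and Cebpd, an acute phase transcription factor (-1.95 ± 0.45, adjusted p = 0.0421). Junb averaged 26.8 ± 3.83 CPM in KO untreated and 119 ± 62.9 CPM in WT DMSO, and Bcl3 averaged 14.5 ± 4.13 CPM in KO untreated and 64.5 ± 42.6 CPM in WT DMSO (SD, n = 4 each). Junb was called in 20 of 22 alternatives, being lost without KO untreated 2 (log2 fold change -2.07, adjusted p = 0.0581) and without the intron-rich libraries (-2.18, 0.106). Bcl3 was called in 19, being lost without KO untreated 2 (-2.17, 0.0526), without KO untreated 4 (-1.97, 0.0568) and without the intron-rich libraries (-2.75, 0.0732). Lbp and Cebpd were each called in 6 of 22, with adjusted p up to 0.123 and 0.147. Both calls were lost without WT DMSO 4, where the log2 fold change was -0.84 for Lbp (0.0684) and -1.28 for Cebpd (0.103), and without any single WT CDDO-Me or KO untreated library, the Lbp call also without any single KO CDDO-Me library, and the Cebpd call also without WT DMSO 1, KO CDDO-Me 1 or KO CDDO-Me 2. Without WT DMSO 4 the list median was -0.32, with 6 of 24 positive and 2 called, beside 1.28% of all genes. Neutrophil and monocyte markers, which summed to 5.71 to 7.36 CPM in KO untreated against 4.68 to 47.7 CPM in WT DMSO with 4 to 7 and 0 to 5 of 13 at 0, move with this comparison through WT DMSO 4, with 1 of their 6 tested genes called, downward, and their part in it was not tested.

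In KO CDDO-Me vs KO untreated, 1 of the 24 target genes rose and 0 fell, beside 0.13% of all genes called. There 22 of the 24 were positive, and the median was 1.44 against -0.044 for all genes. The gene called was Fgl1, a secreted hepatocyte protein of the fibrinogen family, with 1438 ± 426 CPM in KO CDDO-Me against 329 ± 141 CPM in KO untreated (log2 fold change 2.13 ± 0.37, edgeR adjusted p = 0.0282). It was called in 13 of 22 alternatives, its log2 fold change staying between 1.74 and 2.33, with adjusted p up to 0.121, which was reached without KO untreated 2. The libraries whose single removal ended the Fgl1 call were WT CDDO-Me 2 and 3, KO untreated 1, 2 and 3, and KO CDDO-Me 1, 2 and 3, and the call was also lost without the 4 intron-rich libraries together (1.74, adjusted p = 0.0605). Just outside the threshold were Itih4, a plasma protease inhibitor chain (1.97 ± 0.37, adjusted p = 0.0504), and Saa1, serum amyloid A (3.01 ± 0.57, adjusted p = 0.0529). DESeq2, which called 1.85% of all genes in this comparison, called 12 of the 24. Saa1 had 7267, 6016, 3755 and 2178 CPM in KO CDDO-Me livers 1 to 4 against 338, 527, 853 and 672 CPM in KO untreated livers. KO CDDO-Me 4, the highest of its group in Socs3, was the lowest of its group in Saa1. Without WT DMSO 4 the count called in this comparison was 7 of the 24, beside 0.816% of all genes.

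In WT CDDO-Me vs WT DMSO, 0 of the 24 target genes were called (0.728% of all genes), 17 were positive and the median was 0.29. Without WT DMSO 4 the median was 1.08 with 23 positive and 0 called. The genes of smallest p were Orm2 (1.79), Fgl1 (0.82) and Lbp (-0.73), with adjusted p from 0.234 to 0.3. In KO CDDO-Me vs WT CDDO-Me, 0 were called, beside 3.3% of all genes, and the median was -0.033. Cebpb (-1.16, edgeR adjusted p = 0.0917), Bcl3 (-1.23, 0.108) and Cebpd (-1.11, 0.197) had the smallest p. Each was lower in all 4 KO CDDO-Me livers than in any WT CDDO-Me liver, and 19.1% of all genes did not overlap there. In the interaction 0 were called (0.13% of all genes), 22 were negative and the median was -1.18, or -0.49 without WT DMSO 4. Lbp, Saa1 and Junb had the smallest p there, with adjusted p from 0.329 to 0.397.

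**Figure D4:**
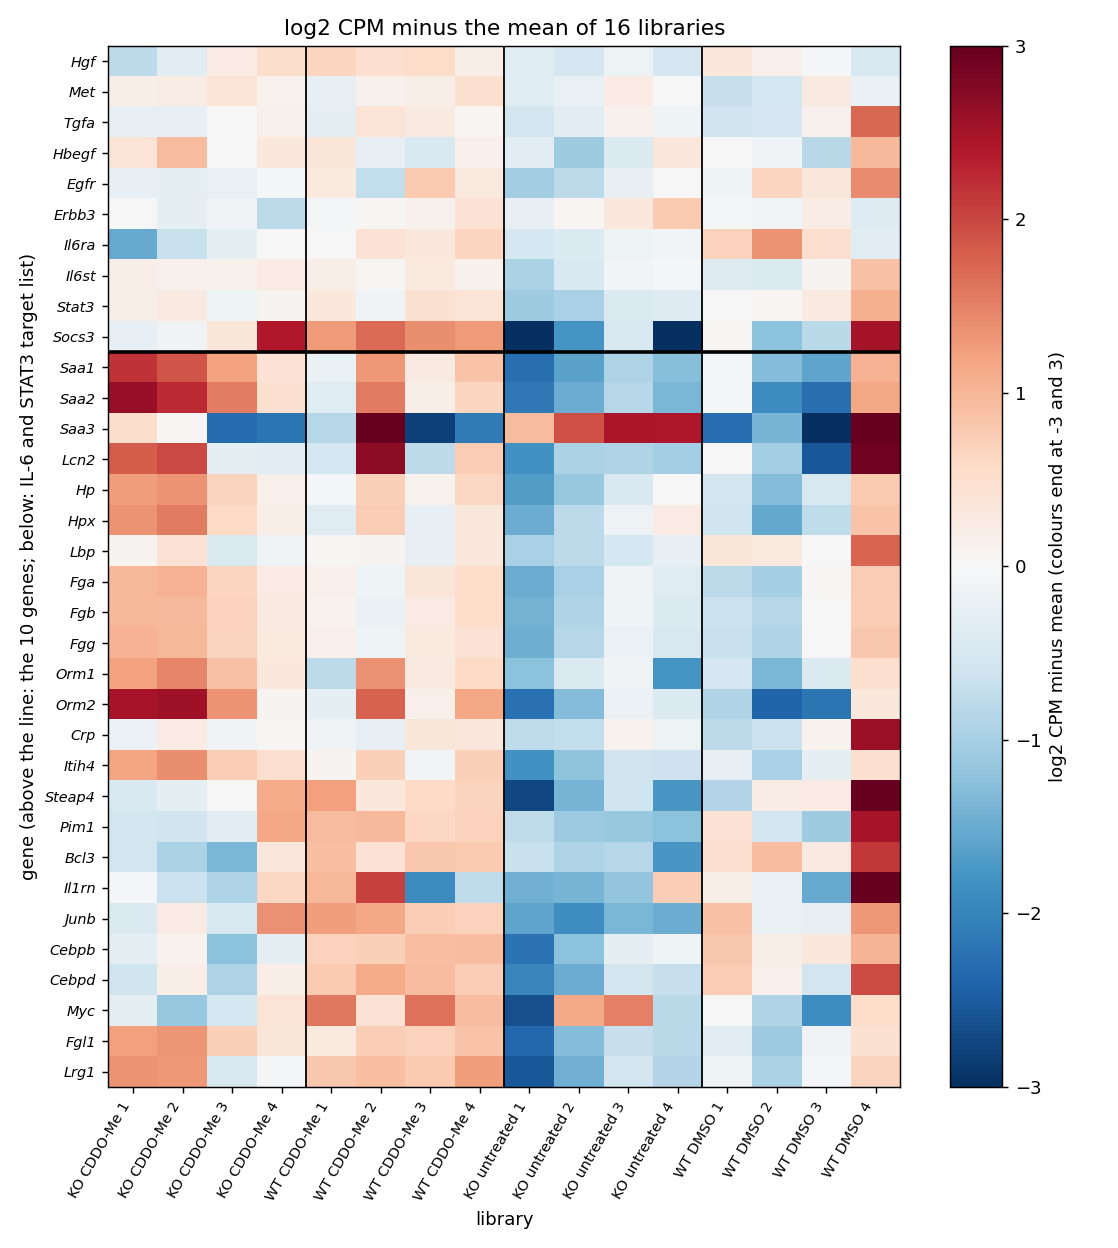
Level of the 10 genes (above the line) and of the 24 IL-6 and STAT3 target genes (below) in each library, as log2 CPM minus the mean of 16 libraries, with colours ending at -3 and 3. KO untreated livers are mostly blue, with 1 to 3 of the 24 target genes above their mean, and WT DMSO 4 has all 24 above.

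Counted per liver, 1 to 3 of the 24 target genes stood above their 16-library mean in KO untreated livers, 12 to 19 in KO CDDO-Me livers, 15 to 22 in WT CDDO-Me livers, and 7, 5, 7 and 24 in WT DMSO livers 1 to 4. Saa3, an acute phase serum amyloid A gene, was above its mean in all 4 KO untreated livers, and is named here after its values were seen. The ligands at the head of the pathway were near the limit of detection. Il6 had 0 to 15 reads per library with 4 libraries at 0, Osm 0 to 19, Lif 0 to 13 and Il11 0 to 23, and none of the 4 passed the filter. A count of 0 is listed as 0 and allows up to 3 reads. Il6 and Lif were highest in WT DMSO 4, at 0.689 and 0.597 CPM.

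Of the other genes of the IL-6 axis (receptors, Janus kinases and inhibitors), 15 of 19 were tested and 0 were called in any comparison. In KO untreated vs WT DMSO the closest were Il11ra1, a receptor for IL-11 (log2 fold change 0.60 ± 0.15, edgeR adjusted p = 0.058), Osmr, the oncostatin M receptor (-1.49 ± 0.40, adjusted p = 0.0837), and Lifr, the receptor for leukemia inhibitory factor (0.65 ± 0.23, adjusted p = 0.177). Osmr averaged 11.3 ± 2.43 CPM in KO untreated and 31.6 ± 23.3 CPM in WT DMSO, or 20.3 ± 7.19 CPM in WT DMSO without library 4 (n = 3). Genes of small p elsewhere were Il11ra1, Tyk2 and Jak1 in KO CDDO-Me vs KO untreated, Socs1 and Ptpn6 in WT CDDO-Me vs WT DMSO, Clcf1, Lifr and Cntfr in KO CDDO-Me vs WT CDDO-Me, then Socs1, Osmr and Jak2 in the interaction, with adjusted p from 0.127 to 0.822.

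In the EGF axis (ligands, sheddases, receptors and the ERK cascade), 24 of 25 genes were tested, Areg having at most 29 reads. The single call was Dusp6, the phosphatase that switches off ERK and is itself induced by ERK, which fell in KO CDDO-Me relative to WT CDDO-Me (log2 fold change -1.33 ± 0.29, edgeR adjusted p = 0.0177), with 44.7 ± 8.50 CPM in KO CDDO-Me and 112 ± 16.3 CPM in WT CDDO-Me. In that comparison 3.3% of all genes were called. The Dusp6 call held in 18 of 22 alternatives, with log2 fold changes from -1.42 to -1.15 in all of them, and was lost without WT CDDO-Me 3 (adjusted p = 0.0576), without KO CDDO-Me 2 (0.0642) or 3 (0.0696), and with limma on FPKM (0.0651). The groups of Dusp6 did not overlap in KO CDDO-Me vs WT CDDO-Me (19.1% of all genes did not) or in WT CDDO-Me vs WT DMSO (7.2%). Its log2 fold change in WT CDDO-Me vs WT DMSO was 1.05 ± 0.29 (edgeR adjusted p = 0.115). Errfi1, a feedback inhibitor of the EGF receptor, averaged 1586 ± 78.5 CPM in KO CDDO-Me and 1062 ± 183 CPM in KO untreated (0.58 ± 0.17, adjusted p = 0.197). Other genes of small p were Mapk3, Map2k2, Rhbdf1, Rhbdf2 and Adam17, with adjusted p from 0.0601 to 0.603 over the comparisons that put them there.

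In the HGF axis (activating proteases, their inhibitors, and MET adaptors) all 17 genes were tested, and 1 was called in KO CDDO-Me vs WT CDDO-Me, beside 3.3% of all genes. Spint2, an inhibitor of the protease that activates HGF, fell in KO CDDO-Me relative to WT CDDO-Me (log2 fold change -0.95 ± 0.22, edgeR adjusted p = 0.026), with 26.9 ± 5.16 CPM in KO CDDO-Me and 52.1 ± 7.79 CPM in WT CDDO-Me. That call held in 17 of 22 alternatives, with log2 fold changes from -1.05 to -0.73 in all of them, and was lost without WT CDDO-Me 2 (adjusted p = 0.061), 3 (0.0892) or 4 (0.0864) or KO CDDO-Me 3 (0.0894) or 4 (0.0774). The log2 fold change of Spint2 in KO untreated vs WT DMSO was -0.73 ± 0.22 (adjusted p = 0.12). Other genes of small p were Plaur, Plat, Plau, St14, Mst1r, Hgfac, Plg and Cbl, with adjusted p from 0.102 to 0.724 over the comparisons that put them there, and 0 of the 17 were called in the other 4 comparisons.

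Across the 16 livers, Stat3 varied together with Il6st (Pearson r = 0.84, Spearman rho = 0.79 on log2 CPM) and with Egfr (r = 0.84, rho = 0.76). These are descriptions over livers that share library, depth and group structure. With WT DMSO 4 left out, r was 0.77 for both pairs, and for deviations from the group means it was 0.89 and 0.86. Socs3 varied with Il6st (r = 0.75) and Stat3 (r = 0.74), and the deviations from group means gave 0.62 and 0.45. Tgfa and Il6st had r = 0.79, or 0.68 without WT DMSO 4. Il6ra had r = -0.15 with Il6st, 0.18 with Stat3 and 0.13 with Socs3, and r = 0.64 with Hgf.

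Among the 16206 genes tested, those nearest to each member were taken by Pearson r of log2 CPM over the 16 livers. For Socs3 they were Ttpal, Prdm4 and Junb (r from 0.88 to 0.89), the last of which is also on the target list. Stat3 was nearest to Gfra1, Mt2 and Isg20l2 (0.92), and Il6st to Cebpg, Nip7 and Ldha (0.96 to 0.97). The nearest genes to Il6ra were Anln, St3gal5 and Gm22442 (0.88 to 0.89), and to Egfr they were Tirap, Isg20l2 and Pawr (0.90 to 0.91), Isg20l2 thus appearing beside both Stat3 and Egfr. Erbb3 went with Tfap4, Fancf and Pdk2 (0.82 to 0.83), and Met with Ttc33, Zfp24 and Eloa (0.94 to 0.95). Of the ligands, Hgf was nearest to Mustn1, Gm43311 and Cars (0.82 to 0.86), Tgfa to Azi2, Cep350 and Wasl (0.95 to 0.96), and Hbegf to Ptger4, Treml2 and Actg1 (0.84 to 0.87).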

How the data were processed

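RNA-seq of liver was measured in 16 libraries, 4 in each group. The authors deposited whole-number read counts per gene and, per the file headers, FPKM, which scales counts by gene length and library total. The submitters' processing notes name GRCm38.p5 as build and, among the tools, HTSeq 0.6.1p1, TopHat2 2.1.0, DESeq2, CASAVA 1.8.2 and cutadapt 1.2.1. Which annotation release and strand setting the counting used is not given in the sources used here, so reads of overlapping genes on opposite strands may not be separated. RNA was depleted of ribosomal RNA and made into directional libraries, per the labels' protocols.

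The counts were tested with edgeR 4.0.16 (R 4.3.3): TMM scaling, filterByExpr by group (16206 of 33730 genes kept), glmQLFit and glmQLFTest over all 16 libraries with 12 residual degrees of freedom, and Benjamini-Hochberg adjustment over the genes tested in each of 5 comparisons. Fold changes are the group named before "vs" over the one after it, and the interaction takes the drug response in WT minus that in KO. Values after ± are standard errors beside a log2 fold change and SD beside a mean. Alternatives were DESeq2 1.42.0, limma 3.58.1 on log2(FPKM + 1), no filter, a replicate block, each library left out, and 2 sets of libraries left out. GENCODE M21 (GRCm38) gave names and positions for 33629 IDs. Replicates are separate libraries that the series calls animals; no label names an animal, so p-values measure the spread between these samples. None of the 24 pairs of libraries within a group agreed within sampling noise. The tests were checked on simulated data. Those data held no intron-rich libraries, ribosomal RNA difference or outlying liver, so the check does not cover these.

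The 10 genes, the pathway and marker lists and the sets of libraries left out were chosen with earlier results of these data known. Genes named were the 10 in every comparison, Nfe2l2 and Nqo1 as checks, each pathway gene called and the 3 of smallest p per list and comparison (a few of these are not reported here), and the 3 genes nearest to each member by Pearson r of log2 CPM.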

Additional observations from a re-analysis of the deposited data

Results flagged for a closer look

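Among 68 gene and group combinations examined (the 10 genes and 7 called pathway genes in 4 groups), 4 held a liver far from its other 3 by Dixon's criterion; chance alone marks about 1 in 20 such groups. Socs3 in KO CDDO-Me 4 was at 229.6 CPM, against 36.8 to 56.0 CPM in the other KO CDDO-Me livers. The other 3 combinations were all WT DMSO 4. Socs3 was at 247 CPM there, against 18.6 to 44.5 CPM in WT DMSO livers 1 to 3. Tgfa was at 84.2 CPM, against 17.1 to 28.2 CPM, and Lbp, the lipopolysaccharide-binding protein of the acute phase, at 535 CPM, against 159.7 to 203 CPM in the same livers.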

How the results depend on the processing

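Of the 5 counts of members called, 3 stayed at 0 in all 22 alternatives. In KO untreated vs WT DMSO it was 1 with all libraries, 0 to 1 with a library left out, 0 without the 4 intron-rich libraries, 0 without WT CDDO-Me 1 and WT DMSO 4, and 2 with DESeq2; in KO CDDO-Me vs KO untreated it was 1 with DESeq2. The replicate block left Stat3 called (-1.08, adjusted p = 0.0189) and 1 member in all; the deviations of livers sharing a number had r from -0.44 to 0.35 over 24 pairs, 12 of them above 0.1, so the numbers were not taken as a pairing. Directions turned for uncalled members, and the cause was not tested. With WT CDDO-Me 1 and WT DMSO 4 left out, log2 fold changes turned to 0.53 (Tgfa), 0.12 (Hbegf) and 0.16 (Stat3) in WT CDDO-Me vs WT DMSO, 0.087 (Tgfa) and 0.0058 (Hbegf) in KO untreated vs WT DMSO, -0.035 (Met) in KO CDDO-Me vs WT CDDO-Me, then -0.11 (Hgf) and 0.42 (Tgfa) in the interaction. Without the intron-rich libraries they turned to 0.20 (Il6ra), -0.40 (Il6st) and -0.26 (Socs3) in WT CDDO-Me vs WT DMSO, -0.053 (Egfr) and -0.067 (Tgfa) in KO CDDO-Me vs KO untreated, and -0.048 (Met) and 0.58 (Il6ra) in the interaction. With limma on FPKM they turned to -0.023 (Il6st, WT CDDO-Me vs WT DMSO), -0.062 (Tgfa, KO CDDO-Me vs KO untreated) and 0.11 (Il6ra, interaction). With a library left out, the ranges that crossed 0 were, in WT CDDO-Me vs WT DMSO, -0.64 to 0.41 (Tgfa), -0.39 to 0.33 (Hbegf), -0.52 to 0.013 (Il6ra), -0.13 to 0.40 (Il6st) and -0.25 to 0.17 (Stat3); in KO untreated vs WT DMSO, -0.96 to 0.088 (Tgfa) and -0.81 to 0.0068 (Hbegf); in KO CDDO-Me vs WT CDDO-Me, -0.035 to 0.20 (Met) and -0.026 to 0.063 (Il6st); and in the interaction, -0.11 to 0.31 (Hgf), -0.031 to 0.32 (Met), -0.76 to 0.29 (Tgfa) and -0.29 to 0.25 (Il6ra).

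Genes called over the whole table moved more. They numbered 118 in WT CDDO-Me vs WT DMSO (226 with the replicate block, 471 with DESeq2, 54 to 219 with a library left out), 21 in KO CDDO-Me vs KO untreated (51 with no filter, 46 with the block, 4 without the intron-rich libraries, 88 without WT CDDO-Me 1 and WT DMSO 4, 298 with DESeq2, 67 with FPKM, 4 to 133 with a library left out), 223 in KO untreated vs WT DMSO (86 without the intron-rich libraries, 657 with DESeq2, 104 to 271 with a library left out), 534 in KO CDDO-Me vs WT CDDO-Me (811 with the block, 1482 without the intron-rich libraries, 1125 with DESeq2, 959 with FPKM, 265 to 820 with a library left out) and 21 in the interaction (38, 42, 67, 176 and 57 with no filter, the block, the intron-rich libraries left out, DESeq2 and FPKM, and 18 to 48 with a library left out). In KO untreated vs WT DMSO the split was 66 higher and 157 lower with edgeR, and 168 and 83 with limma on FPKM. In KO CDDO-Me vs WT CDDO-Me it was 172 and 362 with edgeR, and 635 and 324 with limma on FPKM. Scaling and test changed together there, so their parts cannot be told apart. Low counts limit Hbegf (7 to 123 reads) and the IL-6 family ligands.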
